A study of Mus musculus with 6 samples.

Results

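The E protein, Id, Twist and musculin genes encode the partners that the muscle regulator MyoD needs and the factors that compete for those partners. The 10 genes described here (Tcf3, Tcf4 and Tcf12; Id1, Id2, Id3 and Id4; Twist1, Twist2 and Msc) were taken by name from a table of 55286 gene symbols, and all 10 were among the 17400 genes with enough counts to be tested. RNA sequencing had been done on 6 mouse samples: 2 of directly reprogrammed cells (transdifferentiated cells below), 2 labelled muscle and 2 of mouse embryonic fibroblasts (MEF). The comparison asks how the dimerisation network around MyoD stood in the converted cells relative to the fibroblasts and to muscle. The sample titles give no strain, age, allele or agent for any group. The sample descriptions hold the terms Tau for MEF and Endo for muscle, which are not explained. The factor used for conversion, the time after it, the origin of the muscle and whether replicates were grown or dissected separately are not stated there. The p-values therefore cover the spread between the libraries of a group, and that spread may be technical.

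MyoD is a basic helix-loop-helix (bHLH) protein that binds DNA at the E-box, CANNTG, as a dimer with an E protein. Id proteins have the dimerisation part but no DNA-binding part, so an E protein held by an Id protein is kept from MyoD, and BMP signalling through SMAD proteins is a well-known activator of Id genes. Twist proteins and musculin do bind DNA with E proteins, and are known as restraints on MyoD-driven transcription.

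Each library held between 16817033 and 24584951 counted reads, and replicates of each group differed beyond counting noise (chi-square per degree of freedom 38.1 to 66.8). Group labels were set against marker genes first. The summed level of 8 skeletal muscle markers was 33820 and 50290 CPM (counts relative to the library total, scaled by TMM factors) in transdifferentiated cells and 51460 and 47680 CPM in muscle, against 563.5 and 372.5 CPM in MEF. That of 10 fibroblast markers was 11190 and 15710 CPM in transdifferentiated cells and 12860 and 7050 CPM in muscle, against 32090 and 20670 CPM in MEF. Col1a1 alone was at 18100 and 8963 CPM in MEF. Gene by gene (edgeR adjusted p under 0.05), 3 were lower in transdifferentiated cells than in MEF (Thy1, Ly6a and Vim). In that comparison 1 was higher (Lum) and 6 were not called, where 11.3% of all genes were lower and 15.9% higher. In muscle against MEF 7 were lower and 0 higher, where 18.3% of all genes were lower. A list of 16 macrophage markers stood apart, at 1043 and 911 CPM in transdifferentiated cells and 21.2 and 14.4 CPM in muscle, against 104 and 97.7 CPM in MEF, and 7 lymphocyte and plasmacytoid dendritic cell markers summed to less than 1 CPM in every library. The difference between replicates also followed base composition. In the third of genes with the highest GC content, above 52.8%, the median log2 difference of replicate 2 over replicate 1 was 0.50 in transdifferentiated cells, -0.25 in muscle and -0.53 in MEF.

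The myogenic bHLH genes, which need E proteins to act, were high in transdifferentiated cells and muscle. Myod1 itself was at 558 and 1187 CPM in transdifferentiated cells and 723 and 621.5 CPM in muscle, against 1.43 and 0.534 CPM in MEF, and a mouse Myod1 coding sequence introduced for conversion would be counted with the endogenous gene. Myog, needed for terminal differentiation, was at 600.2 and 864 CPM in transdifferentiated cells and 1101 and 991 CPM in muscle, against 1.596 and 1.21 CPM in MEF. Myf6 was at 22.7 and 23.8 CPM in transdifferentiated cells and at 41.9 and 50.04 CPM in muscle, and had 0 counts in both MEF libraries, which makes it at least 149.7-fold higher in transdifferentiated cells, with the bound set by 3 counts in each MEF library. Myf5, an early determination factor, set transdifferentiated cells and muscle apart. It was at 0.281 and 0.145 CPM (5 and 3 counts) in transdifferentiated cells, against 31.0 and 38.6 CPM in muscle. The log2 fold change was -7.34 ± 0.46 (SE of the edgeR quasi-likelihood fit). Myf5 entered the test only through muscle, so no p-value is given for that difference. Against MEF, at 0.0550 and 0.0485 CPM, Myf5 in transdifferentiated cells was not called (edgeR adjusted p = 0.126).

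In transdifferentiated cells against MEF, 6 of the 10 genes were lower (Id1, Id2, Id3, Id4, Twist1 and Twist2), 1 was higher (Msc) and the 3 E protein genes were not called. Over all genes tested, 11.3% were called lower and 15.9% higher in that comparison, 27.3% in either direction (edgeR quasi-likelihood F test, Benjamini-Hochberg adjusted p under 0.05 over all 17400 genes). The median log2 fold change of the 10 was -1.30, beside 0.07 for all genes. In muscle against MEF, 6 were lower (the same 4 Id genes and both Twist genes), 2 were higher (Tcf4 and Msc) and 2 were not called, where 18.3% of all genes were lower, 17.3% higher and 35.6% called either way. The median of the 10 was -2.80, beside 0.00 for all genes. In transdifferentiated cells against muscle, 3 were higher (Id2, Twist1 and Twist2), 0 were lower and 7 were not called, where 7.58% of all genes were higher, 2.46% lower and 10% called either way. At an unadjusted edgeR p under 0.05, 1 of the 10 was lower there (Tcf4), and 0 by DESeq2. The median of the 10 was 0.58, beside 0.03 for all genes. All 3 comparisons share groups, so they are not independent of each other. Msc had no count in MEF and passed the filter on low counts only through the other groups, so its call adds nothing to these counts. Id4 passed that filter only through transdifferentiated cells and MEF, so its call in muscle against MEF adds nothing either. Library values of transdifferentiated cells and MEF did not overlap in 7 of the 10 genes (6 lower, 1 higher), where 27.9% of all genes lay lower and 32.7% higher without overlap, 60.6% in all. Muscle and MEF did not overlap in 8 (6 lower, 2 higher), where 34.3% of all genes lay lower and 34.5% higher, 68.8% in all. Transdifferentiated cells and muscle did not overlap in 6 (5 higher, 1 lower), where 26.4% lay higher and 22.5% lower, 48.9% in all. In bulk RNA, fewer cells of a type and less RNA per cell cannot be told apart.

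**Figure D1:**
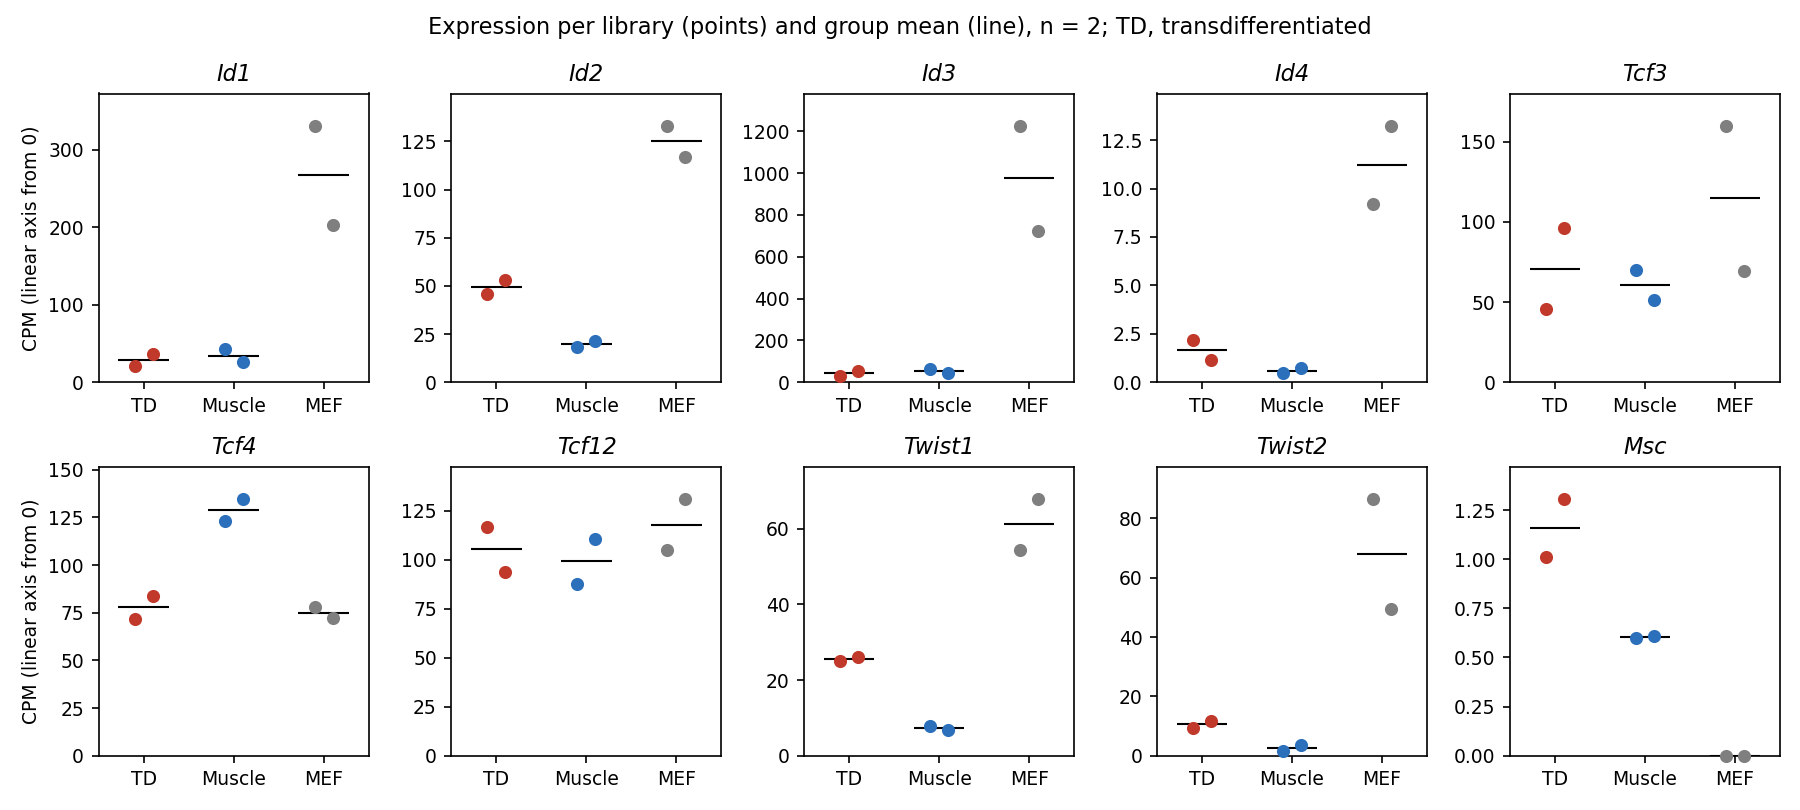
CPM of each of the 10 genes (linear axes from 0) in each library (points) with the group mean (line), for transdifferentiated cells (TD), muscle and MEF, n = 2 each. The Id and Twist points of MEF stand above all others, while the Tcf3 and Tcf12 points of the 3 groups overlap and Tcf4 is highest in muscle.

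The E proteins, each able to pair with MyoD, with Id proteins and with Twist proteins, gave 1 call in the 3 comparisons, Tcf4 in muscle over MEF. Tcf12 (HEB; mm10, chromosome 9, 71842688 to 72111871, minus strand) was not called in any comparison. It was at 116.9 and 93.8 CPM in transdifferentiated cells and 87.6 and 110.7 CPM in muscle, against 104.7 and 130.9 CPM in MEF. The ranges of all 3 groups overlapped. The log2 fold change was -0.16 ± 0.26 in transdifferentiated cells over MEF (95% interval -0.75 to 0.43, adjusted p = 0.695), 0.09 ± 0.26 over muscle (-0.50 to 0.68, adjusted p = 0.923) and -0.25 ± 0.26 in muscle over MEF (-0.84 to 0.34, adjusted p = 0.503). These intervals leave room for changes of up to 0.84 on the log2 scale.

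Tcf3 (mm10, chromosome 10, 80409514 to 80433647, minus strand) encodes, by alternative splicing, the founding E proteins, which counts per gene do not tell apart. Its level was 45.5 and 96.2 CPM in transdifferentiated cells and 70.2 and 51.0 CPM in muscle, against 160 and 69.4 CPM in MEF. The replicates of transdifferentiated cells lay far apart, as did those of MEF, and all 3 ranges overlapped. Transdifferentiated cells over MEF gave -0.70 ± 0.46 (95% interval -1.74 to 0.35, adjusted p = 0.304) and muscle over MEF -0.92 ± 0.46 (-1.97 to 0.13, adjusted p = 0.157). Tcf3 had the highest GC content of the 10 (61.0%), and its log2 difference of replicate 2 over replicate 1 was 1.08 in transdifferentiated cells, -0.46 in muscle and -1.20 in MEF, the signs shown by GC-rich genes as a class. With a GC offset per library, an alternative chosen after seeing the data, Tcf3 was called lower than in MEF both in transdifferentiated cells (-0.57 ± 0.20, adjusted p = 0.0452) and in muscle (-0.85 ± 0.20, adjusted p = 0.00571). Without MEF replicate 2 it was also called, at -1.18 ± 0.40 in transdifferentiated cells (adjusted p = 0.0447) and -1.41 ± 0.40 in muscle (adjusted p = 0.0143). Without MEF replicate 1 the log2 fold change was 0.03 ± 0.42 in transdifferentiated cells (adjusted p = 0.977) and -0.20 in muscle (adjusted p = 0.774), so the direction of Tcf3 in transdifferentiated cells over MEF rests on MEF replicate 1.

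Tcf4 (E2-2; mm10, chromosome 18, 69343356 to 69689079, plus strand), the E protein needed by plasmacytoid dendritic cells, was highest in muscle. Its level was 71.8 and 83.8 CPM in transdifferentiated cells and 123 and 134.6 CPM in muscle, against 77.9 and 72.2 CPM in MEF. Muscle lay above both other groups without overlap, while transdifferentiated cells overlapped MEF. Muscle over MEF was 1.72-fold (log2 0.78 ± 0.24, adjusted p = 0.0306), but that call was lost when any library of either group was left out (adjusted p between 0.0846 and 0.187). It was also lost with no filter on low counts (adjusted p = 0.0531) and with the GC offset (adjusted p = 0.0533). The log2 fold change itself stayed between 0.72 and 0.84 in those fits. Siglech, a plasmacytoid dendritic cell marker, had 0 counts in all libraries. Transdifferentiated cells over MEF gave 0.05 ± 0.24 (95% interval -0.48 to 0.59, adjusted p = 0.894). Transdifferentiated cells over muscle gave -0.73 ± 0.24 (-1.26 to -0.19), which did not pass over all genes (adjusted p = 0.0979).

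The stretches just upstream of the RefSeq starts of Tcf3 (chr10:80433648-80433885, minus strand) and of the first listed start of Tcf12 (chr9:72111872-72112069, minus strand; both GRCm38.p6, from RefSeq) are shown as those of E protein genes that were not called, beside the Id and Twist genes below. Capitals mark the E-box CANNTG, searched on both strands; bases in annotated exons were left out.

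Tcf3: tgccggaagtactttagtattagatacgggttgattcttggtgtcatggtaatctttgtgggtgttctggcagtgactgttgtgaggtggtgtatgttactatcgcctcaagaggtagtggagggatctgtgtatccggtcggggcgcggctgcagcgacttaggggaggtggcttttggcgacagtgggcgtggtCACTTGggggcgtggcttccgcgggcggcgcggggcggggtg
Tcf12: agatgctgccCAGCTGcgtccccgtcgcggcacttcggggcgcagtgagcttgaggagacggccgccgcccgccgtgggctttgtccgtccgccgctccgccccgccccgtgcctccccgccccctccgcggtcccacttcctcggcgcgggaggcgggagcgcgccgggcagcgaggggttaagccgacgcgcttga

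Each holds 1 E-box, that of Tcf12 being a CAGCTG, 240 bases before the start, and that of Tcf3 lying 54 bases before it. A CANNTG occurs in 66.2% of 32851 RefSeq promoter windows of 250 bases, and CAGCTG, a form favoured by MyoD and contained in CANNTG, in 13%. These matches describe the letters alone.

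All 4 Id genes were lower in transdifferentiated cells and in muscle than in MEF, with no overlap with the MEF libraries. Id3 (mm10, chromosome 4, 136143497 to 136145755, plus strand), a broad inhibitor of E proteins in growing cells, was the most abundant Id gene in MEF and, of the Id genes, had the largest fold change in transdifferentiated cells over MEF. It was at 31.3 and 53.9 CPM in transdifferentiated cells and 62.9 and 44.5 CPM in muscle, against 1227 and 722 CPM in MEF. It was 22.9-fold lower in transdifferentiated cells (log2 -4.51 ± 0.41, adjusted p = 8.81e-05) and 18.1-fold lower in muscle (-4.18 ± 0.41, adjusted p = 9.26e-05). Transdifferentiated cells and muscle overlapped, with a log2 fold change of -0.33 ± 0.36 (95% interval -1.15 to 0.49, adjusted p = 0.718).

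Id1 (mm10, chromosome 2, 152736251 to 152737410, plus strand), a classic BMP target, was at 21.2 and 36.2 CPM in transdifferentiated cells and 42.6 and 26.1 CPM in muscle, against 332 and 204 CPM in MEF. Both other groups lay far below MEF and overlapped each other. It was 9.31-fold lower in transdifferentiated cells (log2 -3.22 ± 0.41, adjusted p = 5.76e-04) and 7.78-fold lower in muscle (-2.96 ± 0.40, adjusted p = 5.95e-04). Between transdifferentiated cells and muscle it gave -0.26 ± 0.38 (95% interval -1.11 to 0.59, adjusted p = 0.809). As for Tcf3, the replicates of Id1 and Id3 differed with the signs of GC-rich genes, but with the GC offset both kept their calls against MEF, at log2 -3.21 ± 0.25 and -4.48 ± 0.24 in transdifferentiated cells.

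Id2 (mm10, chromosome 12, 25093799 to 25097140, minus strand), also known from innate lymphoid cells, took an intermediate level in transdifferentiated cells. It was at 46.0 and 52.8 CPM in transdifferentiated cells and 18.5 and 21.5 CPM in muscle, against 133 and 117 CPM in MEF. No group overlapped another. Transdifferentiated cells were 2.53-fold lower than MEF (log2 -1.34 ± 0.25, adjusted p = 0.00418) and muscle was 6.26-fold lower than MEF (-2.65 ± 0.26, adjusted p = 8.89e-05). Transdifferentiated cells were 2.48-fold higher than muscle (1.31 ± 0.25, adjusted p = 0.0115). Without muscle replicate 1 or 2 the last call was lost (adjusted p = 0.133 and 0.0901), at log2 fold changes of 1.2 and 1.41.

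Id4 (mm10, chromosome 13, 48261228 to 48266026, plus strand), best known from neural progenitors, was the rarest Id gene. It had 39 and 24 counts (2.19 and 1.16 CPM) in transdifferentiated cells and 11 and 12 counts (0.469 and 0.730 CPM) in muscle, against 167 and 273 counts (9.19 and 13.3 CPM) in MEF. No group overlapped another. It was 6.72-fold lower in transdifferentiated cells (log2 -2.75 ± 0.46, adjusted p = 0.00274) and 18.9-fold lower in muscle (-4.24 ± 0.52) than in MEF. Over muscle, transdifferentiated cells gave 1.49 ± 0.52 (95% interval 0.31 to 2.67), which was not called, and 1.40 ± 0.40 with the GC offset. Muscle replicate 1 fell short of the filter on low counts, so Id4 entered the test only through the other groups. No p-value is given for its differences from muscle. Antisense transcripts overlap 4.44% and 2.13% of its exon bases and had at most 7 counts in any library.

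The stretches before the RefSeq starts of Id2 (chr12:25096254-25096342, minus strand) and Id4 (chr13:48260866-48261115, plus strand, both GRCm38.p6) are shown as those of Id genes that moved together. That of Id2 lies inside the annotated gene but outside its exons, downstream of the annotated start at 25097140. The 161 bases between it and the RefSeq start are annotated exon and were left out. Whether the Id2 stretch acts as a promoter was not tested. Capitals mark CANNTG on either strand.

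Id2: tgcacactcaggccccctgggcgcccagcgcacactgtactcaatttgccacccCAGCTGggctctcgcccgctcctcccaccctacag
Id4: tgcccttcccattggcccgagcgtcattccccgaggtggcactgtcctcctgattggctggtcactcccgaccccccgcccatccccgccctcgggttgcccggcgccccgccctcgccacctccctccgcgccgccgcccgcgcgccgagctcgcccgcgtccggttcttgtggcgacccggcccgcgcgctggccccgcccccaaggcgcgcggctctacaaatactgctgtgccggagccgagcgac

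Id2 has 1 E-box, a CAGCTG, 196 bases before its RefSeq start and so inside the annotated gene. Id4 has none in its 250 bases, and the window of Id3 holds none either. Both Id2 and Id4 hold 1 GGCGCC, the GC-rich sequence bound by BMP-responsive SMAD proteins, which 9.59% of promoter windows hold and the windows of Id3, Tcf3, Twist1 and Twist2 do not.

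Among the restraints that bind DNA, the Twist genes followed the order MEF, transdifferentiated cells, muscle, and Msc did not. Twist1 (mm10, chromosome 12, 33957671 to 33959829, plus strand), a mesenchymal regulator that binds E proteins and blocks MyoD, was at 24.99 and 26.2 CPM in transdifferentiated cells and 7.97 and 6.81 CPM in muscle, against 54.4 and 67.8 CPM in MEF. The 3 groups did not overlap. It was 2.39-fold lower in transdifferentiated cells than in MEF (log2 -1.25 ± 0.26, adjusted p = 0.0077) and 8.26-fold lower in muscle (-3.04 ± 0.28, adjusted p = 6.41e-05). Transdifferentiated cells were 3.46-fold higher than muscle (1.79 ± 0.27, adjusted p = 0.00387), a call lost without muscle replicate 2 (1.68 ± 0.41, adjusted p = 0.0587).

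Twist2 (Dermo1; mm10, chromosome 1, 91801461 to 91848028, plus strand), the closest relative of Twist1, was at 9.49 and 11.6 CPM in transdifferentiated cells and 1.62 and 3.47 CPM in muscle, against 86.5 and 49.6 CPM in MEF. Its groups did not overlap either. It was 6.44-fold lower in transdifferentiated cells than in MEF (log2 -2.69 ± 0.42, adjusted p = 0.00178) and 27.2-fold lower in muscle (-4.76 ± 0.47, adjusted p = 9.78e-05). Transdifferentiated cells were 4.21-fold higher than muscle (2.08 ± 0.43, adjusted p = 0.0176), a call lost without muscle replicate 1 (1.6 ± 0.50, adjusted p = 0.131). An antisense gene, Gm29100, overlaps 46.5% of the exon bases of Twist2 and the strand setting of the counting is not stated in the sources used here; Gm29100 had 9 and 6 counts in transdifferentiated cells and 5 and 0 counts in muscle, against 19 and 40 counts in MEF.

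Msc (musculin, also called MyoR; mm10, chromosome 1, 14753346 to 14755992, minus strand), a repressor found in muscle precursors, ran the other way at a level close to the detection limit. It had 18 and 27 counts (1.01 and 1.31 CPM) in transdifferentiated cells and 14 and 10 counts (0.596 and 0.608 CPM) in muscle, against 0 counts in both MEF libraries. Set against 3 counts in each MEF library, a mean of 0.155 CPM, Msc was at least 7.46-fold higher in transdifferentiated cells and at least 3.88-fold higher in muscle. It entered the test only through the groups where it was present, so no p-value is given for its difference from MEF. Transdifferentiated cells and muscle did not overlap but were not called apart (log2 0.94 ± 0.65, 95% interval -0.57 to 2.45, adjusted p = 0.512). The antisense gene Gm9947 overlaps 21.2% of the exon bases of Msc and had 1 count in all 6 libraries together.

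The promoter stretches of Twist1 (chr12:33957421-33957670, plus strand) and Twist2 (chr1:91801211-91801460, plus strand; GRCm38.p6, from RefSeq) are given as those of the pair that fell together.

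Twist1: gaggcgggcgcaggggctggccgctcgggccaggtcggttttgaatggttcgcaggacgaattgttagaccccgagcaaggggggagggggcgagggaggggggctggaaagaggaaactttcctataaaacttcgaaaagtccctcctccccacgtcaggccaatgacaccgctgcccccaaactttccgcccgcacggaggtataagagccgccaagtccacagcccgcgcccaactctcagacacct
Twist2: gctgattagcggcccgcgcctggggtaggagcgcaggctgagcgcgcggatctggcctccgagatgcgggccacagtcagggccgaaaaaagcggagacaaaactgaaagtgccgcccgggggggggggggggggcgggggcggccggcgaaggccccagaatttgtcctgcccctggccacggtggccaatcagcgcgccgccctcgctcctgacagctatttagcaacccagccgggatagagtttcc

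Neither 250-base window holds a CANNTG on either strand, so no capitals appear, nor a GGCGCC. The form CACCTG, contained in CANNTG and bound by SNAI proteins among others, occurs on either strand in 17.2% of windows and in none of those printed. Of the 10 genes, 7 matched a RefSeq promoter.

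**Figure D2:**
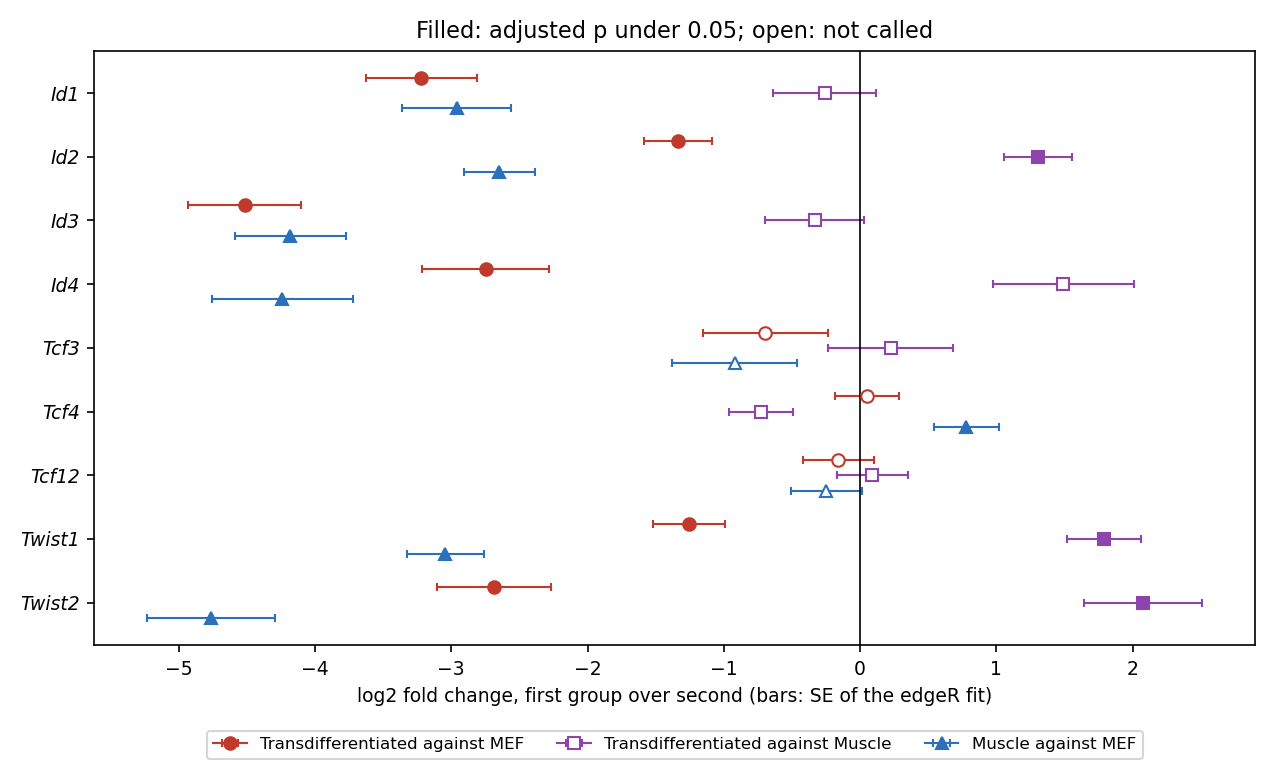
Log2 fold change (points) with the SE of the edgeR fit (bars) for 9 genes, without Msc, in transdifferentiated cells over MEF (circles), transdifferentiated cells over muscle (squares) and muscle over MEF (triangles); filled points passed an adjusted p of 0.05. The Id and Twist genes lie left of 0 against MEF, with Id3 at -4.51 in transdifferentiated cells and Twist2 at -4.76 in muscle, and Id2, Twist1 and Twist2 lie right of 0 in transdifferentiated cells over muscle.

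Id2, Twist1 and Twist2 were the 3 genes higher in transdifferentiated cells than in muscle, and the libraries of these groups also differed in other cell type markers. The level of 14 of 15 tested macrophage markers exceeded that in muscle, led by Lyz2 at 440 and 295 CPM in transdifferentiated cells against 0.980 and 0.122 CPM in muscle, and Adgre1, Ptprc and Tyrobp had 0 counts in both muscle libraries. Over all genes 7.58% were higher than in muscle. Of the 14, only Cd68, Csf1r, Mrc1 and Laptm5 had enough counts in both muscle libraries to pass the filter there. The others entered the test only through groups where they were high, so their calls add nothing to that count. Against MEF, where 15.9% of all genes were higher, macrophage markers were likewise higher in 14 of 15 cases, of which Aif1 and Ptprc entered the test only through transdifferentiated cells. Fibroblast markers were higher than in muscle in 5 of 10 cases (Thy1, Pdgfra, Ly6a, Dcn and Lum) and cell-cycle genes in 10 of 15, with summed cell-cycle levels of 264 and 195.5 CPM in transdifferentiated cells and 95.6 and 100.3 CPM in muscle, against 524 and 609 CPM in MEF. Schwann and neural markers were higher than in muscle in 4 of 5 cases, at summed levels of 35.2 and 59.1 CPM in transdifferentiated cells against 10.4 and 11.4 CPM in muscle. Of these, Sox10 and Ngfr entered the test only through groups other than muscle. Endothelial markers summed to at most 24.5 CPM in any library. The summed level of 6 smooth muscle and pericyte markers was 2317 and 3243 CPM in transdifferentiated cells and 4288 and 2743 CPM in muscle, against 13600 and 9916 CPM in MEF, where the Id genes were also highest, and 13 of 15 cell-cycle genes were lower in transdifferentiated cells than in MEF, where 11.3% of all genes were lower. The part of these cell types and of proliferation in the results on Id and Twist genes was not tested.

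To set genes against each other, levels were divided by the length of all annotated exons of each gene (GENCODE M21). On that scale the summed Id level was 55.2 and 83.3 CPM per kb in transdifferentiated cells and 79.6 and 56.3 CPM per kb in muscle, against 1028 and 630.1 CPM per kb in MEF. The summed E protein level was 21.4 and 32.9 CPM per kb in transdifferentiated cells and 27.5 and 24.7 CPM per kb in muscle, against 49.2 and 28.3 CPM per kb in MEF. The MEF libraries lay above all others for the Id sum, by more than the replicates differed, whereas for the E protein sum MEF replicate 2 lay within the range of the transdifferentiated libraries.

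The ratio of Id to E protein level was 2.58 and 2.53 in transdifferentiated cells and 2.89 and 2.28 in muscle, against 20.9 and 22.3 in MEF. Replicates lay close together beside the gap to MEF, and the transdifferentiated libraries lay between the muscle libraries. The ratio was 8.45-fold lower in transdifferentiated cells than in MEF (log2 difference -3.08, SD between replicates 0.145) and 8.40-fold lower in muscle (-3.07), while transdifferentiated cells and muscle differed by -0.01. An exact two-sided permutation test of 2 against 2 libraries cannot go below p = 0.33, and gave exact p = 0.33 for each comparison with MEF and exact p = 1 between transdifferentiated cells and muscle. Id3 carried much of the difference: without it the log2 difference of transdifferentiated cells from MEF was -2.15. Divided by the longest transcript instead, the ratios were 1.58 and 1.76 in transdifferentiated cells and 1.84 and 1.35 in muscle, against 16.5 and 15.2 in MEF. RNA levels are not protein levels, and isoforms of the E protein genes are not resolved here.

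**Figure D3:**
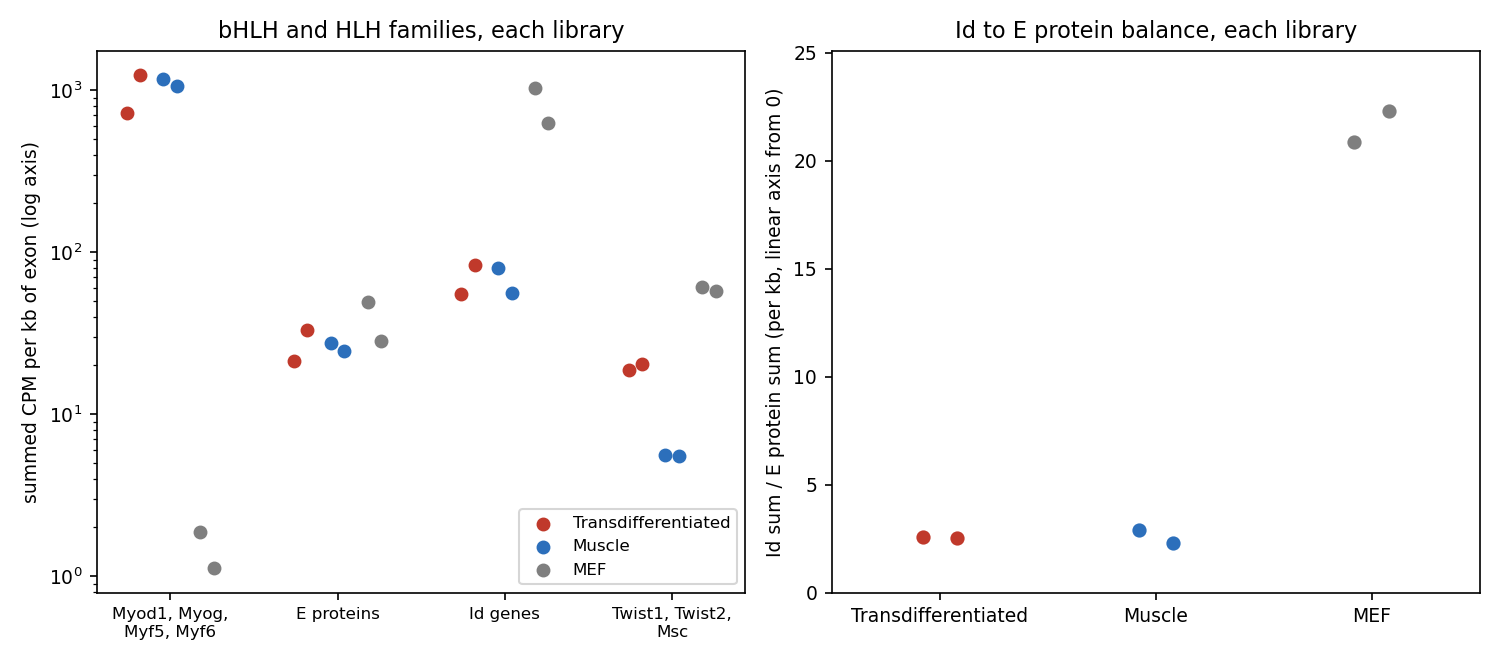
Left, summed CPM per kb of exon (log axis) of the myogenic bHLH, E protein, Id and Twist and Msc genes in each library; right, the ratio of the Id to the E protein sum in each library (linear axis from 0). The ratio lies between 2.28 and 2.89 in transdifferentiated cells and muscle and at 20.9 and 22.3 in MEF.

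Set against their myogenic partners, the summed E protein level was a small fraction in transdifferentiated cells and muscle and many times larger in MEF. The summed level of Myod1, Myog, Myf5 and Myf6 was 719 and 1235 CPM per kb in transdifferentiated cells and 1173 and 1055 CPM per kb in muscle, against 1.86 and 1.12 CPM per kb in MEF. E proteins over myogenic bHLH genes thus stood at 0.0298 and 0.0267 in transdifferentiated cells and 0.0234 in each muscle library, against 26.4 and 25.2 in MEF. The summed level of Twist1, Twist2 and Msc was 18.7 and 20.3 CPM per kb in transdifferentiated cells and 5.64 and 5.51 CPM per kb in muscle, against 60.7 and 57.3 CPM per kb in MEF, with no overlap.

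The make-up of the Id family differed between the groups as well as its size. Id3 took 31.6% and 36.2% of the summed Id level per kb in transdifferentiated cells and 44.1% in each muscle library, against 66.7% and 64.0% in MEF. Id2 took 34.2% and 26.0% in transdifferentiated cells and 9.53% and 15.6% in muscle, against 5.32% and 7.61% in MEF, so its share was highest in transdifferentiated cells. Id1 took 33.2% and 37.5% in transdifferentiated cells and 46.2% and 39.9% in muscle, against 27.8% and 27.9% in MEF. Within the E proteins, Tcf3 took the largest share in all 6 libraries on this scale, at 52.6% and 72.3% in transdifferentiated cells and 63.2% and 51.2% in muscle, against 80.5% and 60.9% in MEF, with all 3 groups overlapping. Tcf4 took 12.2% and 9.30% in transdifferentiated cells and 16.3% and 19.9% in muscle, against 5.78% and 9.33% in MEF. Divided by the longest transcript, Tcf12 lay above Tcf3 in transdifferentiated replicate 1, at 18.6 against 15.4 CPM per kb, and in muscle replicate 2, at 17.6 against 17.3 CPM per kb. Shares of Tcf4 and Tcf12 depend on the length used, since all exons of Tcf4 span 27382 bases and its longest transcript 8577, and those of Tcf12 span 15529 and 6299.

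**Figure D4:**
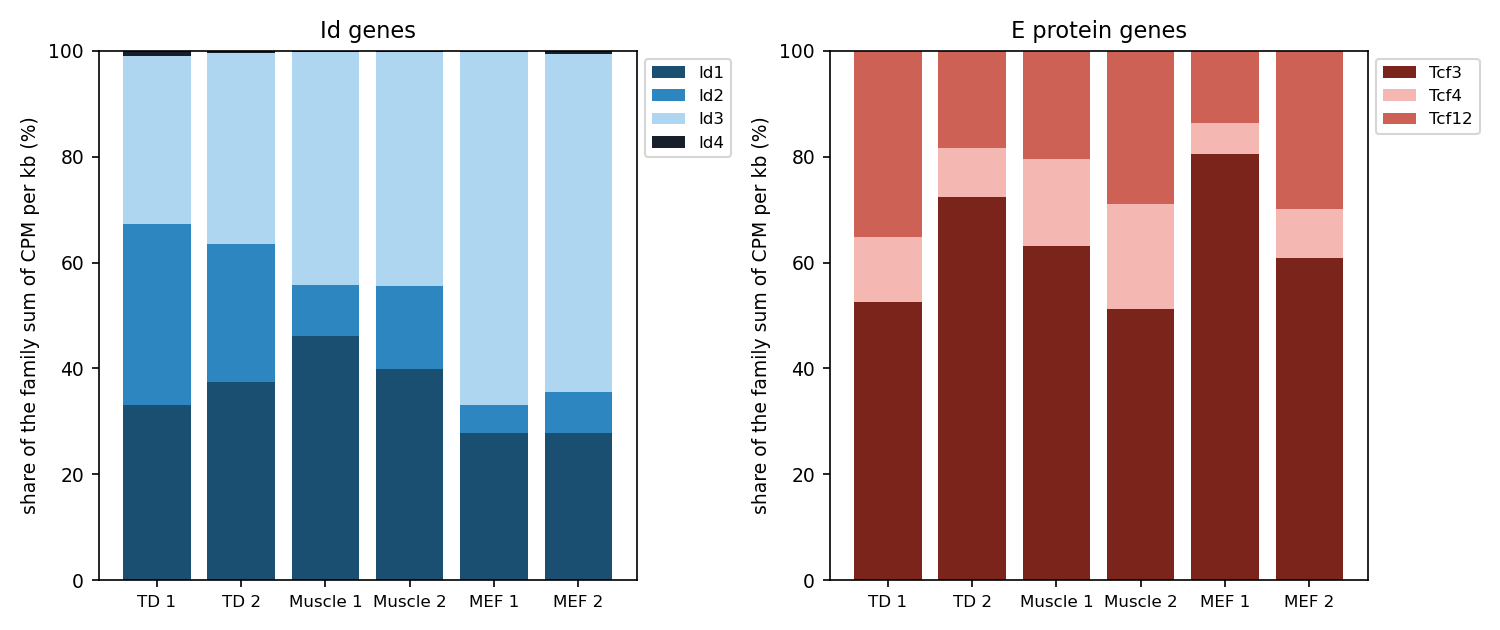
Share of each gene in the summed CPM per kb (%) of its family, for the Id genes (left) and the E protein genes (right), in each library of transdifferentiated cells (TD), muscle and MEF. Id3 takes 31.6% to 36.2% in transdifferentiated cells against 64.0% to 66.7% in MEF, and Tcf3 is the largest E protein share in every library at this length, though not in all with the longest transcript.

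Ranked by mean level per kb of exon, Id1 (24.7 ± 9.11, SD, n = 2), Id3 (23.8 ± 8.94), Id2 (20.3 ± 1.98), Tcf3 (17.5 ± 8.87) and Twist1 (15.7 ± 0.53) led in transdifferentiated cells, each overlapping its neighbour. Tcf12 (6.78 ± 1.05) came next without overlap, then Twist2 (3.32 ± 0.47) and Tcf4 (2.84 ± 0.31), which overlapped, then Msc and Id4 at under 1 CPM per kb. In muscle, Id3 (29.98 ± 7.25) and Id1 (29.6 ± 10.1) overlapped at the top, ahead of Tcf3 (15.0 ± 3.35), Id2 (8.19 ± 0.86) and Tcf12 (6.38 ± 1.05), none of which overlapped its neighbour. Tcf4 and Twist1 followed and overlapped, with Twist2, Msc and Id4 below. In MEF, Id3 (544 ± 199), Id1 (231 ± 78.0) and Id2 (51.3 ± 4.74) led without overlap, and Twist1 (37.5 ± 5.83), Tcf3 (28.4 ± 15.9) and Twist2 (21.4 ± 8.23) came next, each overlapping its neighbour. With the longest transcript as length, Id3 (33.3 ± 12.5) and Id2 (25.1 ± 2.45) passed Id1 in transdifferentiated cells and Tcf3 passed Twist1 in MEF. On that length Tcf12 passed Twist1 and Tcf4 passed Twist2 in transdifferentiated cells, and both passed Id2 in muscle.

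The wider network was read from lists of related genes. Of 12 tested other class II bHLH genes, which also pair with E proteins, 4 were higher and 3 lower in transdifferentiated cells than in MEF, and 22 of the 34 listed had too few counts to test; 15.9% of all genes were higher and 11.3% lower in that comparison. Tal2 was at 9.32 and 4.55 CPM in transdifferentiated cells and 2.73 and 3.10 CPM in muscle, against 0 and 0.0485 CPM in MEF (1 count in all). It entered the test only through the groups where it was present, so no p-value is given for its difference from MEF. Atoh8 was at 3.99 and 6.34 CPM in transdifferentiated cells against 128 and 79.3 CPM in MEF (log2 -4.32 ± 0.52, adjusted p = 4.39e-04). Against muscle, 5 of the 12 were higher in transdifferentiated cells and 0 lower (1 lower at an unadjusted edgeR p under 0.05, 0 by DESeq2), and in muscle against MEF 3 were higher and 6 lower. Over all genes 7.58% were higher and 2.46% lower against muscle, and 17.3% higher and 18.3% lower in muscle against MEF. The 5 higher than muscle (Lyl1, Hand2, Tcf21, Bhlhe22 and Olig1) had at most 5 counts in a muscle library. They entered the test only through other groups, so their calls add nothing to these counts. The same holds for Tal2, Tcf23 and Hand1 in both comparisons with MEF. It also holds for Olig1 in transdifferentiated cells against MEF, and for Lyl1, Hand2, Tcf21 and Bhlhe22 in muscle against MEF.

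Of 11 other genes known to restrain MyoD, 5 were lower in transdifferentiated cells than in MEF (Snai1, Snai2, Hes1, Ccnd1 and Hdac1), 2 were higher (Bhlhe41 and Hey1) and 4 were not called (median log2 -0.78), where 11.3% of all genes were lower and 15.9% higher. Ccnd1, cyclin D1, whose kinase complex blocks MyoD in cycling cells, was at 18.2 and 30.2 CPM in transdifferentiated cells against 166 and 116.5 CPM in MEF (-2.54 ± 0.33, adjusted p = 6.99e-04). Bhlhe41 (Sharp1), a bHLH repressor of myogenic differentiation, was at 42.7 and 47.9 CPM in transdifferentiated cells against 7.15 and 4.66 CPM in MEF (2.94 ± 0.36, adjusted p = 4.74e-04). Between transdifferentiated cells and muscle 1 of the 11 was called, Hey1, which was higher, a share close to the 10% of all genes called there. In muscle against MEF 2 were higher (Bhlhe41 and Zeb1) and 4 lower, where 17.3% of all genes were higher and 18.3% lower.

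Of 10 BMP receptor and SMAD genes, 4 were lower in transdifferentiated cells than in MEF (Bmpr1b, Smad9, Smad6 and Smad7), the same 4 were lower in muscle than in MEF, and 0 of 10 were called between transdifferentiated cells and muscle (0 also at an unadjusted edgeR p under 0.05 and by DESeq2). Over all genes 11.3% were lower in transdifferentiated cells than in MEF and 18.3% in muscle than in MEF, and 10% were called between transdifferentiated cells and muscle, so a count of 0 among 10 is near the share of all genes. Smad6, an inhibitory SMAD that is itself a BMP target, was at 3.09 and 3.72 CPM in transdifferentiated cells against 81.7 and 39.4 CPM in MEF (-4.15 ± 0.46, adjusted p = 2.88e-04). Smad9, which encodes a SMAD acting below BMP receptors, was at 0.281 and 0.0484 CPM in transdifferentiated cells against 16.95 and 11.01 CPM in MEF (-6.41 ± 0.78). It entered the test only through MEF, so no p-value is given for it. The median of the list was -0.34, beside 0.07 for all genes.

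Of 8 co-regulators of E proteins, 3 exceeded their MEF level in transdifferentiated cells (Cbfa2t3, Kat2b and Lmo2), 1 was lower (Runx1t1) and 4 were not called, where 15.9% of all genes were higher and 11.3% lower. Cbfa2t3, an ETO-family corepressor that binds E proteins, was at 33.0 and 57.8 CPM in transdifferentiated cells against 0.275 and 0 CPM in MEF (8.38 ± 0.74). Runx1t1, its relative, was at 8.54 and 7.50 CPM in transdifferentiated cells against 24.7 and 25.04 CPM in MEF (-1.63 ± 0.32, edgeR adjusted p = 0.00589). Lmo2, which bridges E protein dimers in blood cells, was at 9.21 and 5.13 CPM in transdifferentiated cells against 0.165 and 0.534 CPM in MEF (4.31 ± 0.70). Cbfa2t3 and Lmo2 entered the test only through groups where they were high, so no p-value is given for them. Both Lmo2 and Runx1t1 were higher in transdifferentiated cells than in muscle, and most macrophage markers exceeded their muscle level as well; their part in these results was not tested.

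The genes whose pattern over the 6 libraries lay closest to that of 4 of the genes were found by the root mean square distance of centred log2 CPM among 9453 genes averaging at least 10 CPM. For Id3 the closest was Smad6 (distance 0.291), at 3.09 and 3.72 CPM in transdifferentiated cells and 4.30 and 2.43 CPM in muscle, against 81.7 and 39.4 CPM in MEF. The next was Csf1 (0.306), the macrophage growth factor, at 77.4 and 126 CPM in transdifferentiated cells and 177.5 and 128 CPM in muscle, against 1959 and 1351 CPM in MEF. For Tcf4 the closest was Rell1 (0.039), for Twist2 they were Adamtsl3 (0.294) and Flt1 (0.451), and for Msc Fras1 (0.193) and Ldlrad3 (0.198). These are descriptions over 6 libraries in 3 groups.

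The authors' deposited table, which lists 2806 genes and names no contrast, held 7 of the 10 genes. Its sign was opposite to muscle over MEF in all 2645 of its genes tested here, so it was read as MEF over muscle. In the authors' deposited table the log2 fold change of MEF over muscle was 2.90 for Id1, 2.63 for Id2, 3.80 for Id3 and 3.95 for Id4. In the authors' deposited table it was 3.02 for Twist1, 4.65 for Twist2 and -4.23 for Msc. The deposited adjusted p-values were at most 6.85e-06 among the Id and Twist genes. The E protein genes were not listed there, and no gene there had a log2 fold change smaller in size than 2.0.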

How the data were processed

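Sequencing had been done on 2 mRNA libraries each of transdifferentiated cells, muscle and MEF; titles gave group and replicate. The authors deposited unnormalized read counts for each gene and library, and a table of log2 fold changes, their standard errors and p-values, per the file headers; its column of mean signal over libraries, as deposited, was not used. The submitters' processing notes name DESeq2 1.26.0, featureCounts 1.6.2, HISAT2 2.1.0, Trim Galore 0.6.0 and the build mm10; annotation, settings and strand are not stated in the sources used here.

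The counts were fitted with edgeR 4.0.16 (R 4.3.3): filterByExpr by group (minimum count 10), TMM scaling and 1 robust quasi-likelihood fit of group to all 6 libraries (3 residual degrees of freedom, biological coefficient of variation 27.3%), with Benjamini-Hochberg adjustment over 17400 genes. CPM use TMM-scaled totals; a count of 0 allows 3 counts, 0.128 to 0.182 CPM in a library, for counting error only. Coordinates and lengths came from GENCODE M21 (mm10). The script was tested on simulated data, which held less spread between replicates than these data and no difference between replicates by GC content. Alternatives were other scalings, no filter, DESeq2 1.42.0, only the groups compared, a replicate block, each library left out and, added later, a GC offset, which covered 97.9% of the tested genes.

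The genes, lists and tests were chosen with earlier results of these data known. Named are all 10 genes, the 4 myogenic bHLH genes, and of each related list the 2 with the smallest adjusted p in transdifferentiated cells against MEF plus the strongest called against the list's majority; others appear as members of a called group. Nearest patterns were sought for Id3, Tcf4, Twist2 and Msc, 2 genes each, of which 1 is not reported here.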

Additional observations from a re-analysis of the deposited data

How the results depend on the processing

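Against MEF, the calls of Id1 to Id4, Twist1 and Twist2 held under all 13 alternatives, in transdifferentiated cells and in muscle. That of Id4 in muscle carries the limit of the filter given above. Genes called lower in transdifferentiated cells than in MEF numbered 3221 with the GC offset and 1280 to 1926 with 1 library left out. Against muscle, those higher numbered 2106 with the GC offset and 589 to 1616 with a library left out; those lower numbered 670 with no filter, 265 with the replicate block, 1090 with the GC offset and 140 to 605 with a library left out. Of the 10 genes, 1 to 3 were then higher in transdifferentiated cells than in muscle, with 1 left without muscle replicate 1 or 2. In muscle over MEF, 1 of the 10 was higher with no filter, with the replicate block or with the GC offset, and 1 to 2 with a library left out, Tcf4 being the gene lost; over all genes 1980 to 3223 were higher and 1778 to 3445 lower.

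The log2 difference in Id to E protein ratio of transdifferentiated cells from MEF was -3.25 with the longest transcript, -3.24 without Id1, -3.50 without Id2 and -2.15 without Id3. From muscle it was 0.35 without length, 0.18 without Id1, -0.33 without Id2, 0.23 without Id3 and -0.18 to 0.16 with a library left out. Muscle minus MEF was -3.33 with the longest transcript, -3.56 without length, -3.41 without Id1, -2.38 without Id3 and -3.24 to -2.90 with a library left out.

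Signs turned with a library left out only in comparisons that were not called: against MEF the log2 fold change in transdifferentiated cells ran between -1.36 and 0.03 for Tcf3, -0.09 and 0.16 for Tcf4 and -0.32 and 0.00 for Tcf12. Against muscle it ran between -0.71 and 0.14 for Id1, -0.79 and 0.01 for Id3, -0.42 and 0.67 for Tcf3 and -0.08 and 0.26 for Tcf12. A lone library left in a group was assumed to vary like the others. The cause of these shifts was not tested. Deviations of same-numbered replicates from their group means had a correlation of 0.314 between muscle and MEF, -0.529 between transdifferentiated cells and MEF and -0.291 between transdifferentiated cells and muscle, so the numbers were not taken to pair the samples, and the labels do not say whether they do; of the 10 genes' calls the block changed that of Tcf4 in muscle over MEF (log2 fold change 0.78, adjusted p = 0.0897). Genes at few counts, such as Msc and Id4, are limited by depth.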
